A study of Mus musculus with 24 samples.

Results

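The 42 genes described here drive and mark the division of cells. They are the proliferation markers Mki67 and Top2a, 6 cyclins and E2F factors of the G1 phase, 8 genes of replication origins, 5 genes of nucleotide supply and of the replication fork, 7 mitotic cyclins and kinases, 5 genes of the spindle checkpoint, and 9 of the spindle, kinetochore and midzone. Members were found by symbol among the probe sets that the array annotation ties to a single gene, and each gene was represented by its probe set with the highest mean signal over the 24 arrays. On this rule 41 of the 42 genes were measured, of 18194 genes in all. Ccnb1, which encodes the mitotic cyclin B1, had no probe set with a single symbol and is not analysed here.

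Total RNA of pooled cochleae was hybridised to Affymetrix mouse genome arrays for α9−/− mice, which lack the α9 nicotinic acetylcholine receptor subunit in every cell, and for wild type mice. Both genotypes were of a hybrid 129S6 and CBA/CaJ background that had been backcrossed to CBA/CaJ, and cochleae were taken at postnatal days 3, 7, 13 and 60 (P3, P7, P13 and P60). Each of the 8 groups of genotype and age has 3 arrays, each from its own pool of animals. Signals are on the log2 scale, where a difference of 1 is a factor of 2, after quantile normalization over all 24 arrays. A change was called where the adjusted p of limma was under 0.05.

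A dividing cell passes through an ordered series of steps. D and E cyclins with their kinases release the E2F factors, which switch on the genes of DNA synthesis. The MCM helicase is loaded on origins in G1 and opens the DNA in S phase, while mitotic kinases, kinesins and kinetochore proteins, most of them made only late in the cycle, build the spindle and separate the chromosomes. In the mammalian cochlea the hair cells and supporting cells leave the cell cycle before birth, whereas the bone around it encloses marrow spaces after birth, in which blood cell precursors divide throughout life. In RNA of a whole tissue, fewer cells of a type and less RNA per cell cannot be told apart.

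Of the arrays, 5 had a Gapdh 3′ control signal that exceeded the 5′ one by 6.30 to 7.69 on the log2 scale, against at most 2.43 on the others, a sign of RNA that is shortened from its 5′ end. They were α9−/− replicate 2 and wild type replicate 1 at P3, wild type replicates 1 and 2 at P13, and wild type replicate 1 at P60. In 10 arrays the poly-A control transcripts that are spiked into the RNA before labeling, here called labeling controls, were dim, with a mean 3′ signal of 4.73 to 7.83, against 8.96 to 10.64 on the others. These were α9−/− replicate 1 and wild type replicate 3 at P3, replicates 1 and 3 of both genotypes at P7, and replicates 2 and 3 of both at P13. The 3 probe sets for Chrna9, the targeted gene, were low in every group and did not separate the genotypes, so they check no label. The mean signal of 13 cochlear marker genes was 8.21 to 9.21 over the α9−/− arrays and 8.43 to 9.5 over the wild type arrays.

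Some of the members share short promoter sequences that the choice of genes did not use. RefSeq promoters of GRCm38.p6, each running from 250 bases before to 50 after the gene start, were at hand for 33 of the 41 measured genes and were searched on both strands for 3 short motifs. They are the cell cycle homology element TTTGAA, the CCAAT box, and the E2F site as TTTGGCGC or TTTCGCGC, whose matches on opposite strands can overlap. Ccnd3, Mcm7 and Prc1 had 2 promoters and counted where either held a motif, while the shares over all promoters are per promoter. TTTGAA was in 15 of the 33 members against 17.9% of all 32851 promoters, and CCAAT was in 25 against 37.4%. Each of the 15 members with TTTGAA also had CCAAT, a pair that 6.95% of all promoters held. Of the 18 proliferation and mitosis genes 13 had TTTGAA, and of the 15 genes of G1 and replication 2 did, namely E2f8 and Mcm2. The E2F letters, in 0.813% of all promoters, were in 4 members, which were Mcm3, Mcm5, Mcm6 and Mcm7. Stretches of 7 promoters are printed to show these arrangements next to the genes' own data, 5 with TTTGAA beside CCAAT and 2 with E2F letters. They run 5′ to 3′ on the strand of the gene, and capitals mark matches to the motifs on either strand, so that TTCAAA marks TTTGAA on the other strand and ATTGG marks CCAAT there.
Mki67: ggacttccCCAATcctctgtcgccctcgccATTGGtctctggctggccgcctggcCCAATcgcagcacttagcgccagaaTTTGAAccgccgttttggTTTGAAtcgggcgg
Top2a: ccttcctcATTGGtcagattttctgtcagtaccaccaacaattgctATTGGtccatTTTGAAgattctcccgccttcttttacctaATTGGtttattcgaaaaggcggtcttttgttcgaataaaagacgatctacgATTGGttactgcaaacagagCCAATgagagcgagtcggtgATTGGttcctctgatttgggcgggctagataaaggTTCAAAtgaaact
Cdc20: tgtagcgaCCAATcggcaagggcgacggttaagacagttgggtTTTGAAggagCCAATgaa
Ube2c: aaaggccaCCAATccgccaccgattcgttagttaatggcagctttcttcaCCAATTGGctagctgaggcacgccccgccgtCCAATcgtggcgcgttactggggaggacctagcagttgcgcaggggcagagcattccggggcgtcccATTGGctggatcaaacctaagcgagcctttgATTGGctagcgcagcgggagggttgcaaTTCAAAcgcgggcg
Kif11: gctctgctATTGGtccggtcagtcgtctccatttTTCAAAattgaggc
Mcm5: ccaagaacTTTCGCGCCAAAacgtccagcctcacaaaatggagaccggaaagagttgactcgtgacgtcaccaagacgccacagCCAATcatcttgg
Mcm6: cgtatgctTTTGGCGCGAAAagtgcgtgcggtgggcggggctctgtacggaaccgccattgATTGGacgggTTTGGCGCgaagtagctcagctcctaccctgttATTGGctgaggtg
The stretches lie at chr7:135716464-135716575 for Mki67, chr11:99024200-99024424 for Top2a, chr4:118437344-118437404 for Cdc20 and chr1:128359707-128359823 for Mcm6, all on the minus strand, and at chr2:164769693-164769913 for Ube2c, chr19:37376329-37376376 for Kif11 and chr8:75109348-75109444 for Mcm5 on the plus strand. A match is only a match of letters, and binding was not measured.

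Transcripts of the division genes did not decline steadily after birth. They held their level between P3 and P7, stood highest at P13, around the onset of hearing, and were lowest at P60. The group mean was highest at P13 in 38 of 41 members in α9−/− cochleae and in 39 of 41 in wild type, whereas P13 was the highest age for 16% and 33.3% of all 18194 genes. At P60 the group mean was lowest in 33 members in α9−/− and 31 in wild type, as it was for 39.6% and 31.3% of all genes. The mean signal of the 41 members was 8.83 to 9.14 over the α9−/− arrays at P3, 9.0 to 9.23 at P7, 9.82 to 9.996 at P13 and 7.95 to 8.50 at P60. Over the wild type arrays it was 8.89 to 9.21 at P3, 9.07 to 9.14 at P7, 10.29 to 10.42 at P13 and 8.16 to 8.57 at P60. In both genotypes every P13 array therefore lay above, and every P60 array below, all arrays of P3 and P7.

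No member was called between P7 and P3. The limma test called 0 of 41 in α9−/− (1.21% of all 45101 probe sets were called in either direction) and 0 of 41 in wild type (0.996% of all probe sets). At an unadjusted p under 0.05 there were 4 members in α9−/−, Cdc6, Tk1, Plk1 and Aurka, and 2 in wild type, Cdc6 and Tk1, all with the higher signal at P7, beside 11.8% and 11.1% of all probe sets in either direction. The median change of the members was 0.12 in α9−/− and 0.03 in wild type.

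More members were called between P13 and P7. In α9−/− cochleae 13 of 41 were called higher at P13, where 2.03% of all probe sets were, and the median change of the members was 0.82. In wild type 33 of 41 were called higher, where 8.65% of all probe sets were, with a median of 1.32. There 1 member, Ccnd1, was called lower, beside 2504 of all 45101 probe sets, and in α9−/− 411 of all probe sets were called lower. Among all 94 probe sets of the members, 18 were called higher and 1 lower in α9−/−, and 47 higher and 5 lower in wild type. The median over all probe sets was -0.04 in α9−/− and 0.04 in wild type. Leaving out single arrays gave 4 to 9 called members in α9−/− and 29 to 32 in wild type, with 4 called without α9−/− replicate 2 of P13 6 without replicate 2 or 3 of P7 or replicate 3 of P13, and 7 without replicate 1 of P13. On the arrays with bright labeling controls alone, of which P7 and P13 have 1 per genotype, the medians were 1.02 in α9−/− and 1.26 in wild type and no member was called. With the 5 low Gapdh 5′ arrays left out, 23 members were called higher in α9−/−, beside 1517 of all 45101 probe sets. None of those arrays is an α9−/− array of P7 or P13, so the α9−/− differences stayed the same and only the estimate of spread changed. In wild type that fit leaves a single array at P13, so its count is not given.

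The fall after P13 took in nearly the whole list. At P60 36 of 41 members were called lower than at P13 in α9−/− (3.58% of all probe sets) and 37 of 41 in wild type (6.97% of all probe sets). The median change was -1.66 in α9−/− and -2.12 in wild type. In α9−/− the members not called were Ccnd1, Ccnd3, Ccne2, Mcm2 and Tyms, and in wild type they were Ccnd1, Ccnd3, Tyms and Ube2c. Among all 94 probe sets of the members, 58 were called lower in α9−/− and 65 in wild type, and none was called higher.

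The adult cochlea was set against the neonatal one by P60 minus P3. In α9−/− 20 of 41 members were called lower (8.01% of all probe sets) and 1 higher (6.28%), and in wild type 16 were called lower (6.11%) and 1 higher (7.59%). The member called higher was Mki67 in both genotypes. The median member change was -0.73 in α9−/− and -0.70 in wild type. The count of lower members was 13 to 19 in α9−/− when single arrays were left out, with 13 without replicate 1 of P3 and 13 without replicate 3 of P60, and 12 to 20 in wild type. The spindle, kinetochore and midzone genes had 8 of 9 members called lower in α9−/− and 5 of 9 in wild type, while the G1 genes had 1 of 6 in each, Ccnd1.

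**Figure D1:**
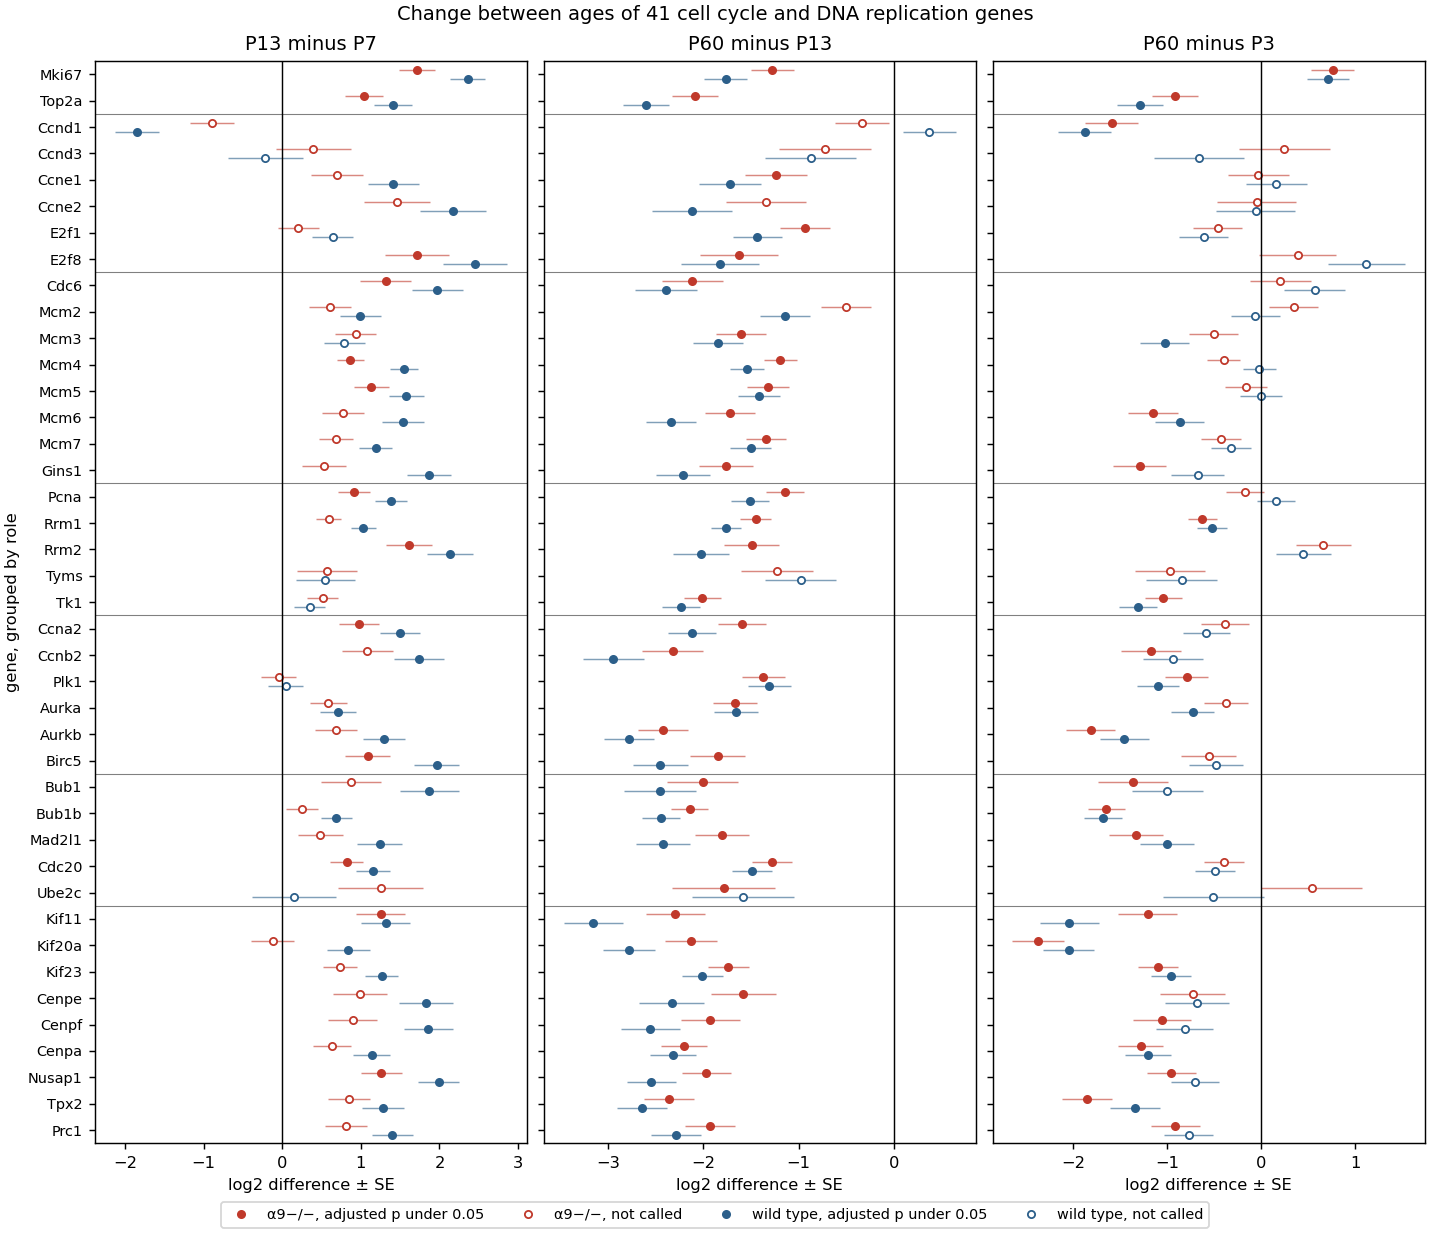
Change of each of the 41 measured genes between ages, as the log2 difference with its standard error, for P13 minus P7, P60 minus P13 and P60 minus P3; red is α9−/− and blue is wild type, filled points were called at an adjusted p under 0.05, and lines part the roles. Nearly all members lie right of 0 in the first panel and left of 0 in the second, and in the first the points left of 0 are Ccnd1 in both genotypes, Plk1 and Kif20a in α9−/− and Ccnd3 in wild type.

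Mki67 (gene ID 17345, chr7:135689784-135716450) encodes Ki-67, the coat protein of mitotic chromosomes by which dividing cells are counted. In α9−/− cochleae its signal was 10.64, 10.82 and 10.33 at P3, then 11.07, 10.54 and 11.14 at P7, then 12.54, 12.63 and 12.73 at P13, and 11.70, 11.33 and 11.03 at P60. In wild type it was 10.98, 10.39 and 10.49 at P3, then 10.96, 10.74 and 10.52 at P7, then 13.30, 13.25 and 12.75 at P13, and 11.54, 11.35 and 11.11 at P60. All P13 arrays stood above those of every other age, and all P60 arrays stood above those of P3. The P13 minus P7 difference was 1.72 ± 0.23 in α9−/− (SE, adjusted p = 0.00015) and 2.36 ± 0.23 in wild type (adjusted p = 1.7e-06), and P60 minus P3 was 0.76 (adjusted p = 0.028) and 0.71 (adjusted p = 0.04). The P60 minus P3 call was lost in both genotypes under median centring in place of quantile normalization, in α9−/− without replicate 1 or 3 of P3 or replicate 1 or 2 of P60, and in wild type without replicate 2 or 3 of P3 or replicate 1 or 2 of P60. In the promoter stretch printed for Mki67 a pair of TTTGAA matches follows 3 CCAAT matches.

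Top2a (gene ID 21973, chr11:98992947-99024199) makes topoisomerase IIα, which untangles replicated chromosomes. Its α9−/− arrays read 10.49, 9.97 and 10.25 at P3, then 10.45, 10.24 and 10.38 at P7, then 11.41, 11.57 and 11.21 at P13, and 9.69, 9.59 and 8.66 at P60. Wild type arrays read 10.40, 10.46 and 10.38 at P3, then 10.34, 10.33 and 10.28 at P7, then 11.28, 11.81 and 12.08 at P13, and 9.19, 9.38 and 8.81 at P60. Unlike Mki67, Top2a had every P60 array below every array of P3. The P60 minus P13 difference was -2.09 ± 0.24 in α9−/− (SE, adjusted p = 2.7e-05) and -2.60 ± 0.24 in wild type (adjusted p = 1.2e-06), and P60 minus P3 was -0.92 (adjusted p = 0.014) and -1.29 (adjusted p = 0.00098). The α9−/− call of P60 minus P3 was lost without replicate 1 of P3 or replicate 3 of P60.

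The G1 genes moved unequally. Ccnd1 (gene ID 12443, chr7:144929931-144939831) encodes cyclin D1, which couples growth signals to the cycle, and fell with age. Its α9−/− arrays read 11.20, 10.20 and 11.31 at P3, then 10.19, 10.55 and 10.87 at P7, then 9.70, 9.59 and 9.64 at P13, and 9.20, 8.96 and 9.76 at P60. Wild type arrays read 10.73, 11.27 and 11.03 at P3, then 10.69, 10.39 and 10.74 at P7, then 8.58, 8.73 and 8.96 at P13, and 8.69, 9.19 and 9.51 at P60. In both genotypes the P13 arrays lay below all P3 and P7 arrays, and the P60 arrays did too. P60 minus P3 was -1.59 ± 0.28 in α9−/− (SE, adjusted p = 0.00058) and -1.88 ± 0.28 in wild type (adjusted p = 0.0001), and P13 minus P7 was -0.89 in α9−/− (adjusted p = 0.1) and -1.85 in wild type (adjusted p = 0.00024).

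Ccne2 (gene ID 12448, chr4:11190433-11204779), a cyclin E that acts at the entry to S phase, had the smallest P60 minus P3 change of the G1 genes in wild type. It read 8.41, 7.97 and 7.05 at P3, then 7.28, 7.91 and 7.76 at P7, then 9.41, 8.76 and 9.15 at P13, and 8.24, 8.36 and 6.69 at P60 in α9−/−. In wild type it read 8.04, 7.71 and 7.51 at P3, then 7.95, 7.79 and 7.21 at P7, then 10.26, 9.90 and 9.29 at P13, and 8.39, 7.46 and 7.23 at P60. Every P13 array was above all arrays of the other ages. The change of P13 minus P7 was 1.46 ± 0.42 in α9−/− (SE, adjusted p = 0.069) and 2.17 ± 0.42 in wild type (adjusted p = 0.0021), and P60 minus P3 was -0.05 and -0.06.

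The other G1 genes were Ccnd3, Ccne1, E2f1 and E2f8. E2f8, an E2F factor that represses others of the family, was called higher at P13 than at P7 in α9−/− (1.71, adjusted p = 0.025) and in wild type (2.45, adjusted p = 0.00059). Ccne1, the other cyclin E, was called in wild type (1.41, adjusted p = 0.0076) but not in α9−/− (0.70, adjusted p = 0.34), and E2f1, an activator of the S phase genes, changed by 0.20 in α9−/− and 0.64 in wild type, neither called. Ccnd3, a D cyclin of lymphoid and erythroid cells among others, was called in no contrast, and at P60 its signal was 8.05 in wild type replicate 1, an array of low Gapdh 5′ signal, against 10.39 and 10.35 in the other wild type arrays.

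Genes of replication origins had 3 of 8 members called higher at P13 than at P7 in α9−/− and 7 of 8 in wild type, and 7 of 8 and 8 of 8 called lower at P60 than at P13. Mcm5 (gene ID 17218, chr8:75109468-75128439), a subunit of the MCM helicase ring, had the smallest P60 minus P3 change of them in wild type. In α9−/− it read 10.58, 10.20 and 9.92 at P3, then 10.30, 10.07 and 10.41 at P7, then 11.55, 11.33 and 11.29 at P13, and 10.31, 10.21 and 9.69 at P60. In wild type it read 10.76, 10.18 and 10.16 at P3, then 10.33, 10.03 and 10.25 at P7, then 12.08, 11.63 and 11.64 at P13, and 10.67, 10.20 and 10.24 at P60. Mcm5 thus stood out at P13, and its arrays of P3, P7 and P60 overlapped. For P13 minus P7 the difference was 1.13 ± 0.22 in α9−/− (SE, adjusted p = 0.0059) and 1.58 ± 0.22 in wild type (adjusted p = 0.00011), and P60 minus P13 was -1.32 (adjusted p = 0.00083) and -1.41 (adjusted p = 0.0003).

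Mcm3 (gene ID 17215, chr1:20802966-20820312), another subunit of the ring, had the largest P60 minus P3 change of the group in wild type. Its α9−/− arrays stood at 9.22, 9.08 and 9.15 at P3, then 9.07, 9.23 and 9.64 at P7, then 10.45, 10.24 and 10.06 at P13, and 8.76, 8.76 and 8.42 at P60. Wild type arrays stood at 9.63, 9.38 and 9.28 at P3, then 9.53, 9.34 and 9.52 at P7, then 10.54, 9.82 and 10.39 at P13, and 7.60, 8.86 and 8.74 at P60. The lowest value, 7.60, came from the P60 array of low Gapdh 5′ signal. P60 minus P3 was -0.50 ± 0.26 in α9−/− (SE, adjusted p = 0.23) and -1.03 ± 0.26 in wild type (adjusted p = 0.011), and P60 minus P13 was -1.60 (adjusted p = 0.00071) and -1.85 (adjusted p = 0.00012). The wild type call of P60 minus P3 was lost without that array.

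Gins1 (gene ID 69270, chr2:150909556-150931280) belongs to the GINS complex that turns the loaded MCM ring into an active helicase. The α9−/− arrays gave 8.10, 8.29 and 7.51 at P3, then 7.95, 7.95 and 7.82 at P7, then 8.45, 8.46 and 8.40 at P13, and 6.57, 6.80 and 6.65 at P60. The wild type arrays gave 8.36, 7.89 and 7.70 at P3, then 7.62, 7.90 and 7.46 at P7, then 9.66, 9.74 and 9.18 at P13, and 8.16, 6.86 and 6.91 at P60. At P13 all α9−/− arrays were below all wild type arrays. P13 minus P7 was 0.53 ± 0.28 in α9−/− (SE, adjusted p = 0.42) and 1.86 ± 0.28 in wild type (adjusted p = 0.00023), and the difference of these changes was -1.33 (adjusted p = 0.46), which was not called.

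Among the other origin genes, Cdc6, which loads the MCM ring, rose by 1.32 in α9−/− (adjusted p = 0.029) and 1.97 in wild type (adjusted p = 0.00051) between P7 and P13. Mcm6, whose promoter stretch carries 3 E2F matches, changed by 0.77 in α9−/− (adjusted p = 0.14) and 1.53 in wild type (adjusted p = 0.00077) over the same interval. Mcm2 was the origin gene with no called fall after P13 in α9−/−, where its change was -0.50 (adjusted p = 0.34), against -1.15 in wild type (adjusted p = 0.0072).

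Pcna (gene ID 18538, chr2:132249286-132253180) encodes the sliding clamp that holds DNA polymerase on the fork. It read 12.02, 11.88 and 11.65 at P3, then 11.88, 12.10 and 11.77 at P7, then 12.68, 12.95 and 12.85 at P13, and 11.76, 11.97 and 11.33 at P60 in α9−/− cochleae. Wild type arrays read 11.31, 11.76 and 11.69 at P3, then 11.68, 12.10 and 11.82 at P7, then 13.31, 13.29 and 13.16 at P13, and 12.09, 11.75 and 11.40 at P60. Every P13 array exceeded every array of the other ages, and P3, P7 and P60 overlapped. The P13 minus P7 difference came to 0.91 ± 0.20 in α9−/− (SE, adjusted p = 0.014) and 1.38 ± 0.20 in wild type (adjusted p = 0.00016), and P60 minus P3 was -0.17 and 0.16, neither called. The α9−/− rise was not called without replicate 1 or 3 of P7 or replicate 2 or 3 of P13.

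Tk1 (gene ID 21877, chr11:117815519-117826087), the thymidine kinase of dividing cells, behaved otherwise. In α9−/− its signal was 8.56, 8.32 and 8.50 at P3, then 9.32, 8.65 and 8.75 at P7, then 9.47, 9.58 and 9.22 at P13, and 7.53, 7.59 and 7.12 at P60. In wild type the arrays gave 8.67, 8.35 and 8.32 at P3, then 8.88, 9.0 and 9.18 at P7, then 9.38, 9.26 and 9.46 at P13, and 6.9, 7.46 and 7.04 at P60. P7 and P13 lay close together, and all P60 arrays were below all others. The change of P13 minus P7 was 0.52 ± 0.20 in α9−/− (SE, adjusted p = 0.21) and 0.35 ± 0.20 in wild type (adjusted p = 0.26), while P60 minus P3 was -1.04 (adjusted p = 0.0011) and -1.31 (adjusted p = 0.00012). Of the enzymes that make deoxynucleotides, Rrm2, the small subunit of ribonucleotide reductase, rose by 1.61 in α9−/− (adjusted p = 0.003) and 2.13 in wild type (adjusted p = 8.7e-05) between P7 and P13, and its large subunit Rrm1 was called in wild type (1.03, adjusted p = 0.0003) and not in α9−/− (0.59, adjusted p = 0.0502). Tyms, thymidylate synthase, was called in no contrast, but its mean signal of 5.84 over the 24 arrays was the lowest of the measured members.

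The mitotic cyclins and kinases had 2 of 6 members called higher at P13 than at P7 in α9−/− and 5 of 6 in wild type, and all 6 called lower at P60 than at P13 in both. Aurkb (gene ID 20877, chr11:69045624-69051664) is the kinase of the chromosomal passenger complex, which corrects faulty attachments of chromosomes. Its signal in α9−/− was 8.10, 8.18 and 8.16 at P3, then 8.45, 7.83 and 7.93 at P7, then 8.72, 8.80 and 8.74 at P13, and 6.45, 6.47 and 6.08 at P60. In wild type it was 8.01, 8.20 and 7.83 at P3, then 7.93, 7.99 and 8.21 at P7, then 9.25, 9.5 and 9.26 at P13, and 7.35, 6.51 and 5.81 at P60. The P60 arrays were below all others in both genotypes, and the highest of them, 7.35, was the array of low Gapdh 5′ signal. P60 minus P3 was -1.81 ± 0.26 in α9−/− (SE, adjusted p = 8.8e-05) and -1.46 ± 0.26 in wild type (adjusted p = 0.00068), and P60 minus P13 was -2.42 (adjusted p = 1.4e-05) and -2.78 (adjusted p = 1.4e-06).

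Birc5 (gene ID 11799, chr11:117849237-117855743) encodes survivin, the partner of Aurkb in that complex. It read 9.5, 9.55 and 8.91 at P3, then 9.81, 9.18 and 9.58 at P7, then 10.79, 10.59 and 10.44 at P13, and 9.04, 8.97 and 8.27 at P60 in α9−/−. Wild type arrays gave 9.88, 8.96 and 9.06 at P3, then 9.46, 9.11 and 9.37 at P7, then 11.56, 11.35 and 10.92 at P13, and 9.36, 8.59 and 8.51 at P60. In contrast to Aurkb, its P60 arrays overlapped those of P3. For P13 minus P7 the difference was 1.08 ± 0.29 in α9−/− (SE, adjusted p = 0.047) and 1.96 ± 0.29 in wild type (adjusted p = 0.00018), and P60 minus P3 was -0.56 (adjusted p = 0.23) and -0.48 (adjusted p = 0.32). The α9−/− rise was not called when any of the 6 arrays it compares was left out. Plk1, the Polo kinase of mitotic entry, was the member of this role with no rise, at -0.05 in α9−/− and 0.04 in wild type, and Ccna2 and Ccnb2, cyclins of S phase and mitosis, changed by 0.98 (adjusted p = 0.038) and 1.08 (adjusted p = 0.075) in α9−/− and by 1.5 (adjusted p = 0.00063) and 1.74 (adjusted p = 0.0014) in wild type.

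**Figure D2:**
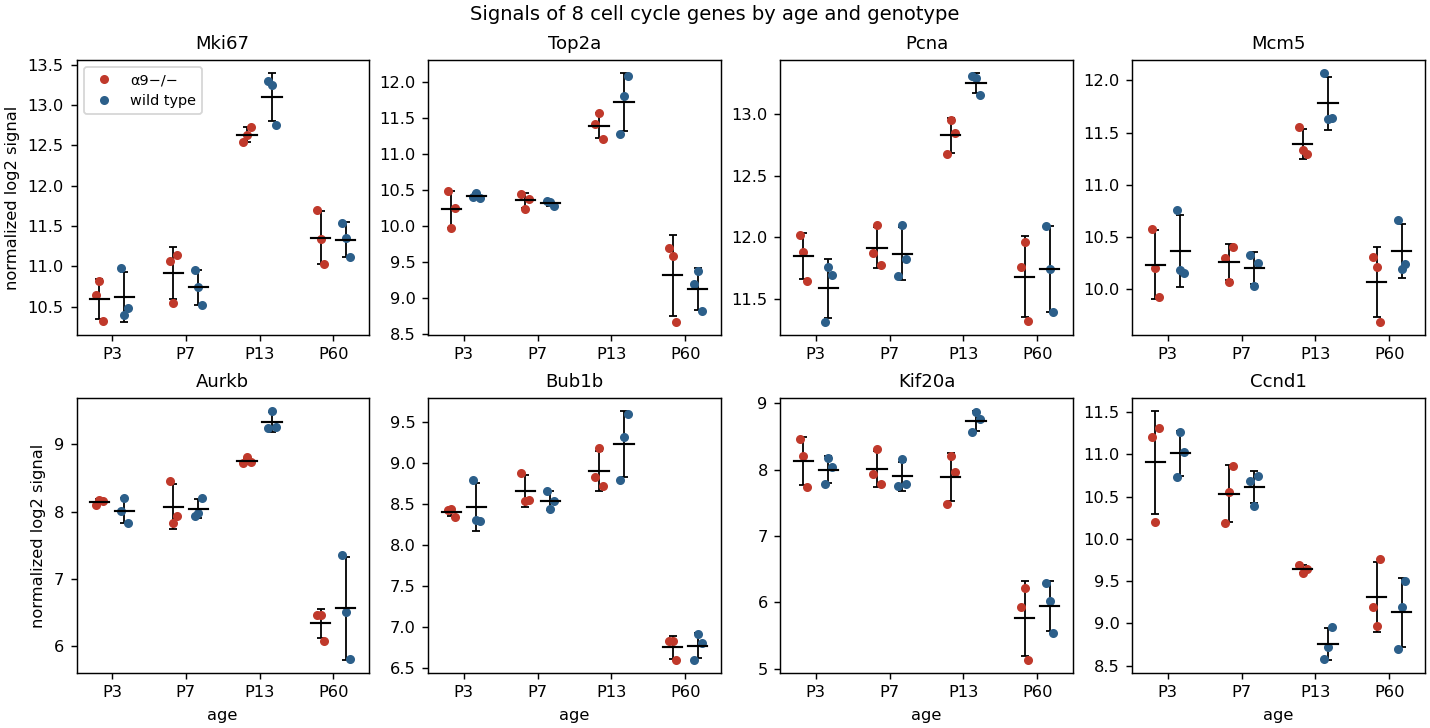
Normalized log2 signal of 8 division genes on each array, by age, with α9−/− in red left of wild type in blue; bars are the mean and the SD of 3 arrays, and each panel has its own axis, which does not start at 0. Mki67, Pcna and Mcm5 peak at P13, after which Pcna and Mcm5 come back near their early values and Mki67 stays above its P3 arrays, Aurkb, Bub1b and Kif20a end far below them, and Ccnd1 falls without a peak.

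The spindle checkpoint holds a cell in metaphase until its chromosomes are attached. Bub1b (gene ID 12236, chr2:118598202-118641592), which encodes the checkpoint protein BubR1, read 8.43, 8.44 and 8.35 at P3, then 8.88, 8.53 and 8.55 at P7, then 8.82, 9.18 and 8.71 at P13, and 6.83, 6.84 and 6.60 at P60 in α9−/−. In wild type it read 8.79, 8.30 and 8.29 at P3, then 8.66, 8.43 and 8.53 at P7, then 8.79, 9.31 and 9.59 at P13, and 6.61, 6.91 and 6.81 at P60. The P60 arrays of both genotypes lay well below all others. P60 minus P3 was -1.65 ± 0.20 in α9−/− (SE, adjusted p = 1.3e-05) and -1.68 ± 0.20 in wild type (adjusted p = 7.8e-06), while P13 minus P7 was 0.25 (adjusted p = 0.65) and 0.69 (adjusted p = 0.027), a call that was lost without wild type replicate 2 or 3 of either age.

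Cdc20 (gene ID 107995, chr4:118432901-118437343) activates the anaphase-promoting complex once the checkpoint is satisfied. Its α9−/− arrays gave 10.80, 10.49 and 10.11 at P3, then 10.49, 10.35 and 10.76 at P7, then 11.45, 11.28 and 11.34 at P13, and 10.19, 10.16 and 9.87 at P60. Wild type arrays gave 11.07, 10.42 and 10.40 at P3, then 10.58, 10.46 and 10.38 at P7, then 11.77, 11.64 and 11.48 at P13, and 10.43, 9.79 and 10.20 at P60. P13 was above every other age, and P60 overlapped P3. P13 minus P7 was 0.82 ± 0.21 in α9−/− (SE, adjusted p = 0.038) and 1.15 ± 0.21 in wild type (adjusted p = 0.0014), and P60 minus P3 was -0.39 (adjusted p = 0.25) and -0.49 (adjusted p = 0.15). Its α9−/− rise was called only with all arrays or without replicate 3 of P7, among the fits that left out 1 of the arrays compared.

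Ube2c, the ubiquitin-conjugating enzyme of the same complex, was low on the arrays of low Gapdh 5′ signal. On those 5 arrays it read 7.18 and 7.62 at P3, then 9.23 and 9.45 at P13 and 6.67 at P60, below every other array of its age. The remaining arrays read 9.26 and 8.93 in α9−/− and 9.06 and 9.15 in wild type at P3, and 9.16, 8.97 and 8.85 in α9−/− and 8.84 and 8.79 in wild type at P60. At P13 they read 10.95, 10.68 and 10.72 in α9−/− and 10.37 in the remaining wild type array. Its α9−/− minus wild type difference at P13, 1.10 (adjusted p = 0.064), was the highest of any member and sets 3 α9−/− arrays against wild type arrays of which 2 were low in this way.

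The spindle genes had the deepest falls. All 9 were called lower at P60 than at P13 in both genotypes, with medians of -1.97 in α9−/− and -2.55 in wild type. Kif20a (gene ID 19348), a kinesin of the midzone that is needed for cytokinesis, read 8.46, 8.21 and 7.74 at P3, then 7.94, 8.31 and 7.79 at P7, then 7.49, 8.21 and 7.97 at P13, and 5.93, 6.22 and 5.13 at P60 in α9−/−. In wild type it read 7.78, 8.18 and 8.04 at P3, then 7.76, 8.16 and 7.78 at P7, then 8.57, 8.87 and 8.77 at P13, and 6.29, 6.02 and 5.55 at P60. At P13 the wild type arrays exceeded all other arrays of the gene, while the α9−/− arrays stayed within the range of P3 and P7 apart from the lowest, 7.49. The P13 minus P7 difference came to -0.12 ± 0.27 in α9−/− (SE, adjusted p = 0.9) and 0.84 ± 0.27 in wild type (adjusted p = 0.046), and P60 minus P3 was -2.38 (adjusted p = 7.3e-06) and -2.05 (adjusted p = 2.9e-05). The wild type rise was not called when any of the 6 arrays it compares was left out.

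Cenpe (gene ID 229841, chr3:135212563-135273540), the kinesin that carries chromosomes to the metaphase plate, had the smallest P60 minus P3 change of the role in wild type. It read 8.63, 8.38 and 7.57 at P3, then 8.03, 8.10 and 8.03 at P7, then 8.86, 9.0 and 9.28 at P13, and 7.76, 7.94 and 6.69 at P60 in α9−/−. The wild type values were 8.59, 8.03 and 8.0 at P3, then 8.13, 8.38 and 7.56 at P7, then 9.86, 9.93 and 9.77 at P13, and 8.27, 7.19 and 7.10 at P60. P13 was the highest age in each genotype, without overlap. The change of P13 minus P7 was 0.99 ± 0.34 in α9−/− (SE, adjusted p = 0.15) and 1.83 ± 0.34 in wild type (adjusted p = 0.0016), and P60 minus P3 was -0.73 (adjusted p = 0.18) and -0.69 (adjusted p = 0.22). Kif11, the kinesin that pushes spindle poles apart, fell by 2.29 in α9−/− and by 3.16 in wild type between P13 and P60 (adjusted p = 0.00013 and 2.5e-06). With all arrays that was the largest fall of any member in wild type. The ranking rests on wild type replicate 1 of P60, an array of low Gapdh 5′ signal. Kif11 read 5.16 there, against 6.28 and 6.34 in the other wild type arrays of P60.

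Across roles, the changes were also read by promoter letters. The median P60 minus P13 change was -1.79 in α9−/− and -2.01 in wild type for the 15 members with TTTGAA, and -1.54 and -1.94 for the 18 members without it. For P13 minus P7 the medians were 0.82 in α9−/− and 1.26 in wild type with TTTGAA, and 0.82 and 1.40 without it. For P60 minus P3 they lay further apart, at -0.91 in α9−/− and -0.82 in wild type with TTTGAA, and -0.53 and -0.64 without it. The 4 members with E2F letters had P60 minus P13 medians of -1.47 in α9−/− and -1.68 in wild type, and the 29 without them -1.74 and -2.03. Of the 15 members with TTTGAA 13 are proliferation or mitosis genes, and the 4 with E2F letters are all MCM subunits. Motif and role therefore largely coincide and cannot be told apart in these medians, which are descriptions with no test.

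Other genes of the same machinery were read in the same contrasts, whose shares over all probe sets are given above. Of 37 further replication genes, 3 were called higher at P13 than at P7 in α9−/− and 28 in wild type, and 22 and 30 were called lower at P60 than at P13. Rfc3 and Rfc5, subunits of the loader of Pcna, changed by -1.31 and -1.08 in α9−/− and by -1.25 and -1.17 in wild type at P60 against P3, and Gins2, a partner of Gins1, by -1.60 in α9−/− and -1.13 in wild type, each called. Of 54 further mitosis genes, 13 were called higher at P13 in α9−/− and 44 in wild type, and 48 and 51 were called lower at P60 than at P13. The mitotic kinases Pbk and Melk changed by -1.80 and -2.70 in α9−/− and by -1.62 and -1.61 in wild type at P60 against P3, and the spindle protein Ckap2 by -1.93 and -1.60, each called.

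The G1 regulators outside the list were mixed. Of 18 inhibitors and pocket proteins, 3 were called higher and 1 lower at P13 than at P7 in α9−/−, and 6 higher and 3 lower in wild type. Cdkn1c, the inhibitor p57 that keeps differentiating cells out of the cycle, fell by 1.41 in α9−/− (adjusted p = 0.00079) and by 2.34 in wild type (adjusted p = 1.3e-06) over that interval, opposite to the mitotic genes. Cdkn1a, the inhibitor p21, changed by -0.71 in α9−/− (adjusted p = 0.056) and by -1.66 in wild type (adjusted p = 1.7e-05), and Rbl2, a pocket protein of resting cells, was higher at P60 than at P3 by 0.51 in α9−/− (adjusted p = 0.12) and by 1.27 in wild type (adjusted p = 0.00034). Among 20 other cyclins, Cdks and E2F factors, Ccnd2 and Cdk4, the close relative and the kinase partner of cyclin D1, fell by 1.61 and 1.95 in α9−/− and by 2.11 and 2.07 in wild type at P60 against P3, whereas E2f2, another activator of the family, rose by 1.95 and 1.44, all called. As with Ccnd1, Cdk4 was already lower at P13 than at P7, by 0.93 in α9−/− and by 1.06 in wild type.

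Marrow is a source of dividing cells in dissected cochleae, and its markers were read on the same arrays. Over 12 measured genes of erythroid precursors of 15 listed, the mean signal was 6.63 to 6.94 at P3, 7.80 to 9.08 at P7, 10.52 to 10.59 at P13 and 8.94 to 9.39 at P60 in α9−/−, and 6.39 to 7.44, 8.43 to 8.56, 10.20 to 10.78 and 8.92 to 9.03 in wild type. Over 12 of 14 genes of B cell precursors it was 6.13 to 6.46 at P3, 7.07 to 7.41 at P7, 8.86 to 9.13 at P13 and 6.97 to 7.10 at P60 in α9−/−, and 6.03 to 6.45, 7.28 to 7.49, 9.34 to 9.88 and 6.99 to 7.65 in wild type. The 14 measured neutrophil precursor genes of 18 ran from 6.95 to 7.47 at P3, 8.80 to 9.16 at P7, 10.72 to 11.09 at P13 and 10.65 to 10.88 at P60 in α9−/−, and from 6.51 to 7.73, 9.23 to 9.67, 11.40 to 11.94 and 10.85 to 11.16 in wild type. The 8 measured genes of blood stem and progenitor cells, of 9, ran from 7.77 to 8.34 at P3, 8.05 to 8.65 at P7, 9.24 to 9.40 at P13 and 8.72 to 8.90 at P60 in α9−/−, and from 7.64 to 7.89, 8.45 to 8.54, 9.66 to 9.90 and 8.80 to 9.22 in wild type. The erythroid, B cell and progenitor lists stood highest at P13 without overlap in both genotypes, as did the neutrophil list in wild type, while in α9−/− its P13 and P60 arrays overlapped.

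The counts of called markers showed which of these moves matched that of the members. Between P7 and P13, 9 and 10 of 12 erythroid genes were called higher in α9−/− and wild type, as were 12 and 13 of 14 neutrophil genes, 7 and 10 of 12 B cell genes and 4 and 5 of 8 progenitor genes. Between P13 and P60, 7 and 8 erythroid genes and 10 and 10 B cell genes were called lower in α9−/− and wild type, against 0 and 3 neutrophil genes and 2 and 4 progenitor genes. Against P3, by contrast, 11 erythroid and 14 neutrophil genes were called higher at P60 in each genotype, where all members but Mki67 were lower or not called. The B cell and progenitor means were also higher at P60 than at P3, without overlap in both genotypes. The erythroid and neutrophil lists were also higher at P7 than at P3, with 10 and 7 erythroid genes and 7 and 13 neutrophil genes called in α9−/− and wild type, an interval in which no member was called. The B cell means were higher at P7 too, without overlap in both genotypes. So were the progenitor means in wild type, while in α9−/− their P3 and P7 arrays overlapped. The part of these cells in the changes of the members was not tested.

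Markers of neighbouring tissue were read as well. The mean over 9 cartilage and growth plate genes was 9.41 to 11.21 at P3, 8.68 to 11.33 at P7, 7.86 to 8.69 at P13 and 7.03 to 7.30 at P60 in α9−/−, and 9.57 to 10.27, 9.36 to 11.10, 8.07 to 8.36 and 7.27 to 7.39 in wild type. The P13 means lay below all P3 means in both genotypes and below all P7 means in wild type, while in α9−/− P7 and P13 overlapped. Over 6 of 8 osteoblast genes, the α9−/− means were 12.77 to 13.05 at P7, 12.49 to 12.92 at P13 and 10.89 to 11.34 at P60. In wild type they were 12.89 to 13.08, 12.34 to 12.51 and 10.68 to 10.87. Per the methods, pieces of cerebellum were cleared away at dissection. A list of 11 genes stood for cerebellar granule cells and their precursors, which divide in the first weeks after birth. Its P7 means were 5.66 to 6.37 in α9−/− and 5.72 to 5.75 in wild type. At P13 they were 5.65 to 6.88 and 5.99 to 7.96, above all P7 arrays in wild type. The P60 means were 7.62 to 9.02 and 6.76 to 8.24. Those means were higher at P60 than at P3, when they were 6.39 to 6.95 and 6.43 to 6.59. The part of these neighbouring tissues in the changes of the members was not tested.

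**Figure D3:**
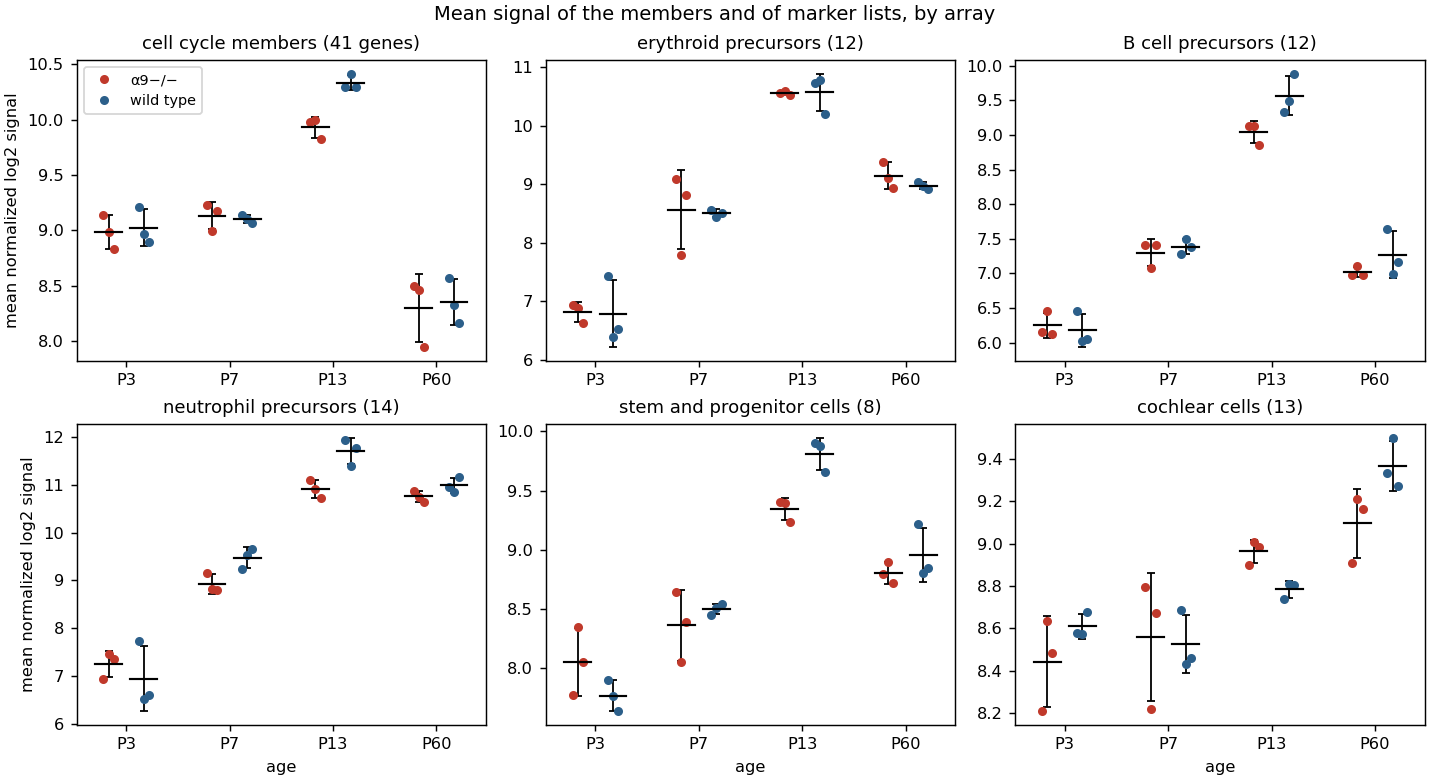
Mean normalized log2 signal of the 41 division genes and of 5 marker lists on each array, by age, with α9−/− in red left of wild type in blue; bars are the mean and SD of 3 arrays, numbers in brackets count the measured genes, and the axes differ and do not start at 0. The division genes and the erythroid and B cell precursor lists peak at P13, the neutrophil list is still high at P60, and the cochlear list has no such peak.

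Whether loss of the α9 subunit altered these genes was asked within each age. The limma test called 0 of 41 members at P3 (0% of the 18041 probe sets tested), 0 at P7 (0.0111%) and 0 at P60 (0%), and no member had an unadjusted p under 0.05 at these ages. The medians of the α9−/− minus wild type differences were -0.03, 0.03 and -0.09. At P13 1 member was called higher in α9−/−, Ccnd1 (11% of all probe sets tested were called higher), and 1 lower, Gins1 (4.01% were called lower). Counts of 1 of 41 are below those shares of all probe sets.

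At P13 the members nevertheless leaned one way. The difference was below 0 in 35 of 41 members, with a median of -0.48, beside 0.04 over all probe sets tested and -0.19 over all 18194 genes, each read by its brightest probe set as the members were. At an unadjusted p under 0.05, 16 members were lower and 2 higher, where 14.6% of all probe sets tested were lower and 22.9% higher, and 20.1% and 7.19% of all genes. The mean signal over the 41 members was 9.82 to 9.996 on the α9−/− arrays and 10.29 to 10.42 on the wild type arrays, without overlap. All 8 origin genes and all 9 spindle genes were below 0, though Mcm3, at -0.0003, did not differ in effect. Gins1 differed by -1.08 ± 0.26 (SE, adjusted p = 0.034) and Ccnd1 by 0.89 ± 0.24 (SE, adjusted p = 0.045), and the arrays of both, given above, did not overlap between genotypes. Next to the threshold were Mcm6 at -0.89 (adjusted p = 0.056), Cenpe at -0.81 (adjusted p = 0.06) and Bub1 at -0.91 (adjusted p = 0.063).

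Both calls were lost when most of the single arrays were left out. Wild type replicates 1 and 2 of P13 were arrays of low Gapdh 5′ signal, and no α9−/− array of that age was. Without them a single wild type array is left, none of the 18041 probe sets was called, so that no call could be kept, and the differences were -0.74 for Gins1 and 0.69 for Ccnd1. Leaving out α9−/− replicate 1, 2 or 3, or wild type replicate 1 or 2, gave 0 called members in either direction, though other probe sets were still called, and leaving out wild type replicate 3 gave 2 higher and 9 lower. With the presence of labeling controls as a block, 8 members were called lower and 1 higher.

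Markers moved at P13 as well. The mean signals were lower in α9−/− than in wild type, without overlap, for neutrophil precursors (10.72 to 11.09 against 11.40 to 11.94), B cell precursors (8.86 to 9.13 against 9.34 to 9.88) and progenitors (9.24 to 9.40 against 9.66 to 9.90), and overlapped for erythroid precursors (10.52 to 10.59 against 10.20 to 10.78). The 13 cochlear markers were higher in α9−/−, also without overlap (8.90 to 9.01 against 8.74 to 8.81). Of all 18041 probe sets tested at P13, 4.01% were called lower in α9−/− and 11% higher, and only the lower calls of these lists are given here. Called lower were 5 of 14 neutrophil genes, Ms4a3, Fcnb, Ltf, Lcn2 and Mmp8, 3 of 12 B cell genes, Rag1, Rag2 and Il7r, and 1 of 6 tested progenitor genes, Cd48. Among the other division genes, 3 of 25 tested replication genes were called lower in α9−/−, Gmnn at -0.92, Cdc7 at -0.96 and Dut at -1.0, and 5 of 48 mitosis genes, Ndc80 at -1.01, Spc25 at -0.99, Melk at -1.17, Ncapg at -1.14 and Sgo2a at -1.14. The part of the marrow and cochlear markers and of the low 5′ signal in the genotype difference was not tested, and at P13 the low 5′ signal and the wild type genotype largely coincide.

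**Figure D4:**
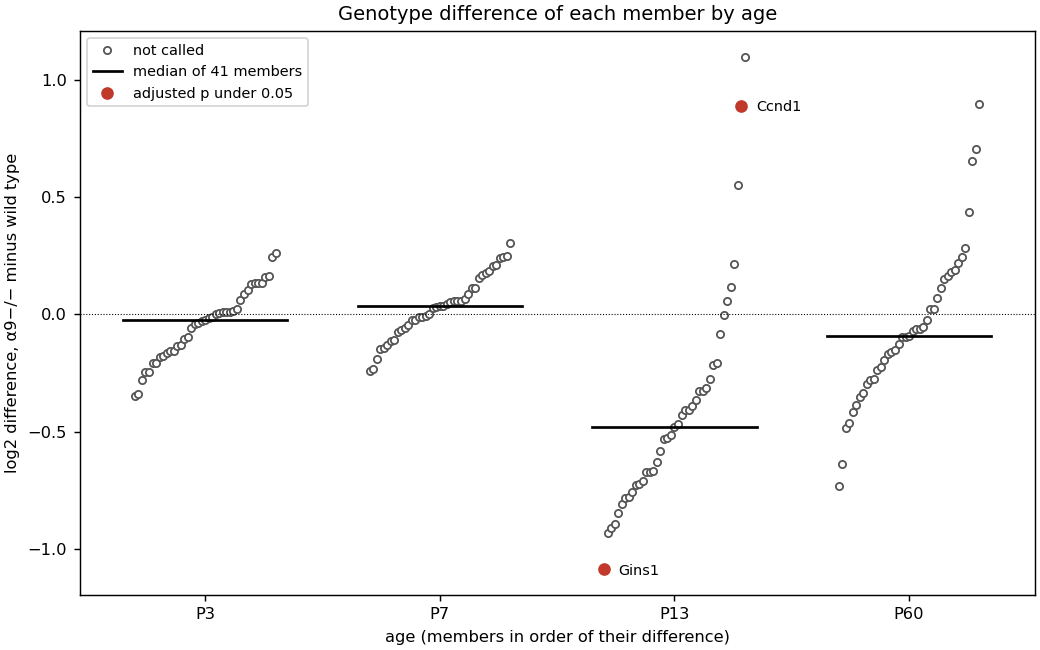
α9−/− minus wild type log2 difference of each of the 41 members at each age, in order of size, with the median as a bar and members called at an adjusted p under 0.05 as filled points. The medians lie near 0 at P3 and P7, at -0.48 at P13 and at -0.09 at P60, and Gins1 and Ccnd1 are the called members.

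The test of whether the changes with age differed between genotypes gave no call. None of the 41 members passed for P7 minus P3 (0% of all probe sets), P13 minus P7 (0.00222%), P60 minus P13 (0%) or P60 minus P3 (0%). At an unadjusted p under 0.05 there were 6 members for P13 minus P7, beside 8.89% of all probe sets, and none for the other intervals. Of those 6, Mcm4, Gins1, Birc5, Kif20a and Cenpf had the lower change in α9−/−, and Ccnd1 had the smaller fall there. The median of the differences of change was 0.10 for P7 minus P3, -0.52 for P13 minus P7, 0.36 for P60 minus P13 and -0.10 for P60 minus P3. Over all genes, each read by its brightest probe set, these medians were -0.02, -0.18, 0.06 and -0.14. The counts of members called higher between P7 and P13, 13 in α9−/− and 33 in wild type, are thus not shown to differ.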

How the data were processed

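Per the methods, the authors background-corrected the arrays by RMA, applied quantile normalization and summarized each probe set by Tukey biweight, giving the deposited log2 values. Array medians of 6.50 to 6.89 differ between ages, so all 24 arrays were quantile-normalized again together. Changes with age and their interactions with genotype were fitted with limma 3.58.1 (R 4.3.3) as 8 group means over 45101 probe sets. Genotypes were compared within each age over the most variable 40% of probe sets, which held all 41 members. Benjamini-Hochberg adjustment ran over all probe sets tested. Of the probe sets, 34958 had 1 gene symbol, 932 several and 9211 none. Values of every array are given for Mki67, Top2a, Pcna and Ccnd1, for the members of each role with the largest and smallest wild type P60 minus P3 change, and for members called between genotypes, and of each further list the 3 called genes of largest such change are named; Ube2c, Cdk4 at P13, Kif11 and the remaining genes were chosen after their values were seen. Members and lists were chosen with earlier results of these data known. Replicates are separate pools, and their number limits the precision. The fits were tested on simulated data. Alternatives covered normalization, filters, array quality, labeling controls, blocks and left-out arrays. Python 3.11.15 with pandas 2.3.3 and matplotlib 3.10.9 made the summaries and figures.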

Additional observations from a re-analysis of the deposited data

How the results depend on the processing

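Of the counts of called members, 143 stayed within 1.5 times their value and 45 did not, and of the medians 154 moved by less than the spread and 4 more. The 143 include counts that were 0 and stayed 0, such as those of the interactions. Medians changed sign in 10 cases, over 5 results whose main medians lie near 0: P7 minus P3 in wild type, the genotype differences at P3 and P60, and the P7 minus P3 and P60 minus P3 interactions. The cause of these shifts was not tested, except that the last settings use fewer arrays or a larger threshold by construction. For P13 minus P7, members called higher in α9−/− numbered 26 on the values as deposited and 34 with array weights. Over all 45101 probe sets 2180 and 3808 were called higher in those fits, against 916 in the main fit. With the low Gapdh 5′ arrays left out 23 members were called higher in α9−/−, beside 1517 of all probe sets. At a log2 difference of 1.5 or more 3 members were called higher in α9−/− and 15 in wild type, beside 365 and 1092 of all probe sets. The arrays with labeling controls alone leave a single array per genotype at P7 and P13, and their medians are given above. The wild type median was 0.95 for the mean over all probe sets of a gene. For P60 minus P13 the arrays with labeling controls gave 2 lower in α9−/− and 10 in wild type, and the wild type median was -2.48 as deposited and -1.59 for the mean over probe sets. For P60 minus P3, members called higher in α9−/− were 2 with array weights and 0 under median centring, at 1.5 or more and on arrays with labeling controls, and in wild type 3 with array weights, 2 with the replicate block, 2 without the arrays of low 5′ signal and 0 as deposited, under median centring, with the variance filter, at 1.5 or more and on arrays with labeling controls. With array weights 5419 of all 45101 probe sets were called higher in α9−/− and 6443 in wild type for this contrast. Members called lower were 5 in α9−/− and 4 in wild type at 1.5 or more, beside 742 and 621 of all probe sets. They were 4 and 5 on arrays with labeling controls, beside 724 and 635. For P7 minus P3 in wild type, array weights called 4 members, where 1877 of all 45101 probe sets were higher and 2144 lower. The fit without the arrays of low 5′ signal called 1, where 528 were higher and 464 lower. Array weights called 13 members in the P13 minus P7 interaction, beside 2309 of all 45101 probe sets higher and 2378 lower. They called 25 in that of P60 minus P13, with a median of 0.71, beside 4151 higher and 3497 lower. In that fit wild type replicate 2 of P13, an array of low Gapdh 5′ signal, had a weight of 4.68, against 0.44 and 0.59 for replicates 1 and 3. At P13, members lower in α9−/− were 2 as deposited, 6 under median centring, 3 with no variance filter, 3 with 1 probe set per gene, 23 with array weights, 8 with labeling controls as a block, and 0 without the arrays of low 5′ signal, in the fit of all 24 arrays and at 1.5 or more. Members higher were 4 with array weights and 0 as deposited, under median centring, with the replicate block, without the arrays of low 5′ signal, in the fit of all 24 arrays and at 1.5 or more.

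With single arrays left out, the counts for P13 minus P7 ran from 4 to 9 in α9−/− and 29 to 32 in wild type, for P60 minus P13 from 32 to 35 and 37 to 38, and for P60 minus P3 from 13 to 19 and 12 to 20 lower and 0 to 2 higher in each. Medians of the same 5 results changed sign when single arrays were left out, from -0.04 to 0.14 for P7 minus P3 in wild type, -0.10 to 0.09 for the genotypes at P3, -0.27 to 0.12 at P60, and -0.02 to 0.18 and -0.26 to 0.11 for the interactions of P7 minus P3 and P60 minus P3. At P13 the counts between genotypes ran from 0 to 2 higher and 0 to 9 lower in α9−/−. Replicate numbers were not treated as pairs in the main fits. Same-numbered arrays of the genotypes correlated between -0.62 and 0.57, and 7 of 12 pairs exceeded 0.1. Arrays of unlike number reached 0.75, for α9−/− replicate 2 and wild type replicate 1 of P3. These values do not settle whether the numbers pair the samples. With the replicate block the P13 minus P7 count was 15 in α9−/− and 33 in wild type.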
